A study of Mus musculus with 15 samples.

Results

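The genes described here are 38 mouse genes of interferon signalling and response, taken by symbol from a table of 20610 genes. The set holds 4 receptor chains, the transcription factor STAT2 and 7 interferon regulatory factors. It also holds 4 genes that sense or edit foreign or abnormal nucleic acid, and 22 genes that interferon is known to induce. All 38 were measured by RNA-seq of polyA RNA in cell fractions from the cortex of WT male mice at postnatal day 28 (P28). The fractions were separated by magnetic cell isolation as neurons, astrocytes or microglia, with 5 libraries of each. No treatment is named for any of the 15 libraries, so the values are levels without added interferon. Strain and the antigens used in the isolation are not given in the sources used here. The labels do not say which animal gave which library, or whether animals were pooled, so each p-value measures only the spread between libraries, which may be technical. Levels are TPM (a transcript's share of its library, corrected for gene length), and 36 of the 38 genes reached 1 TPM in at least 5 libraries and were tested.

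Interferons are secreted proteins of the antiviral defence. Type I interferons bind the receptor chains IFNAR1 and IFNAR2, which activate a complex that holds STAT2 and IRF9, and interferon-gamma binds IFNGR1 and IFNGR2. The type I complex binds a promoter element called ISRE, interferon-gamma signalling acts through one called GAS, and both switch on interferon-stimulated genes, whose products block viral entry, translation and budding. In the brain, a low resting level of these genes is kept by constitutive interferon signalling, and microglia, endothelial cells and neurons are all known to respond.

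A gene was called higher in one cell type than in another when limma's adjusted p was below 0.05 and the difference in mean log2(TPM + 1) was at least 1, a 2-fold change on that scale. Each fold given below comes from this difference, so it is a fold of TPM + 1 and understates the change in TPM of low genes. Of the 36 tested genes, 22 were called higher in neurons than in astrocytes, where 12.9% of all 13351 tested genes were, and 0 were called higher in astrocytes, where 12.7% of all tested genes were. With no adjustment and no minimum size, 28 of the 36 had a limma p below 0.05 with neurons higher and 0 with astrocytes higher. Between neurons and microglia, 14 were called higher in neurons (29.5% of all tested genes) and 5 in microglia (9.74%). Between astrocytes and microglia, 4 were called higher in astrocytes (32.3%) and 14 in microglia (10.2%). The median log2 difference of the 36 genes was 1.16 for neurons minus astrocytes, 0.64 for neurons minus microglia and -0.44 for astrocytes minus microglia, beside -0.029, 0.48 and 0.57 over all tested genes. The share of members called higher in neurons was thus well above the background in the comparison with astrocytes, and near it in the comparison with microglia.

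By pattern, 12 members were called higher in neurons than in both other fractions, against a background of 9.58%: Irf7, Ifit1, Ifitm2, Ifitm3, Isg15, Usp18, Oasl2, Rsad2, Ifi44, Rtp4, Xaf1 and Trim25. Another 5 were called higher in microglia than in both others (background 7.42%): Ifngr1, Ifngr2, Irf5, Irf8 and Trim30a. A further 9 members were called lower in astrocytes than in both others, a pattern of 2.16% of all tested genes: Ifnar2, Irf1, Irf2, Oas1a, Bst2, Ifi35, Parp14, Samhd1 and Zbp1. Only Ifit3 was called lower in microglia than in both others, a pattern of 18.3% of all tested genes. None was called higher in astrocytes than in both others, where 10.2% of tested genes were, and 0 were so at an unadjusted limma p below 0.05. Ifnar1 was called in 1 comparison, and 8 members in none.

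**Figure D1:**
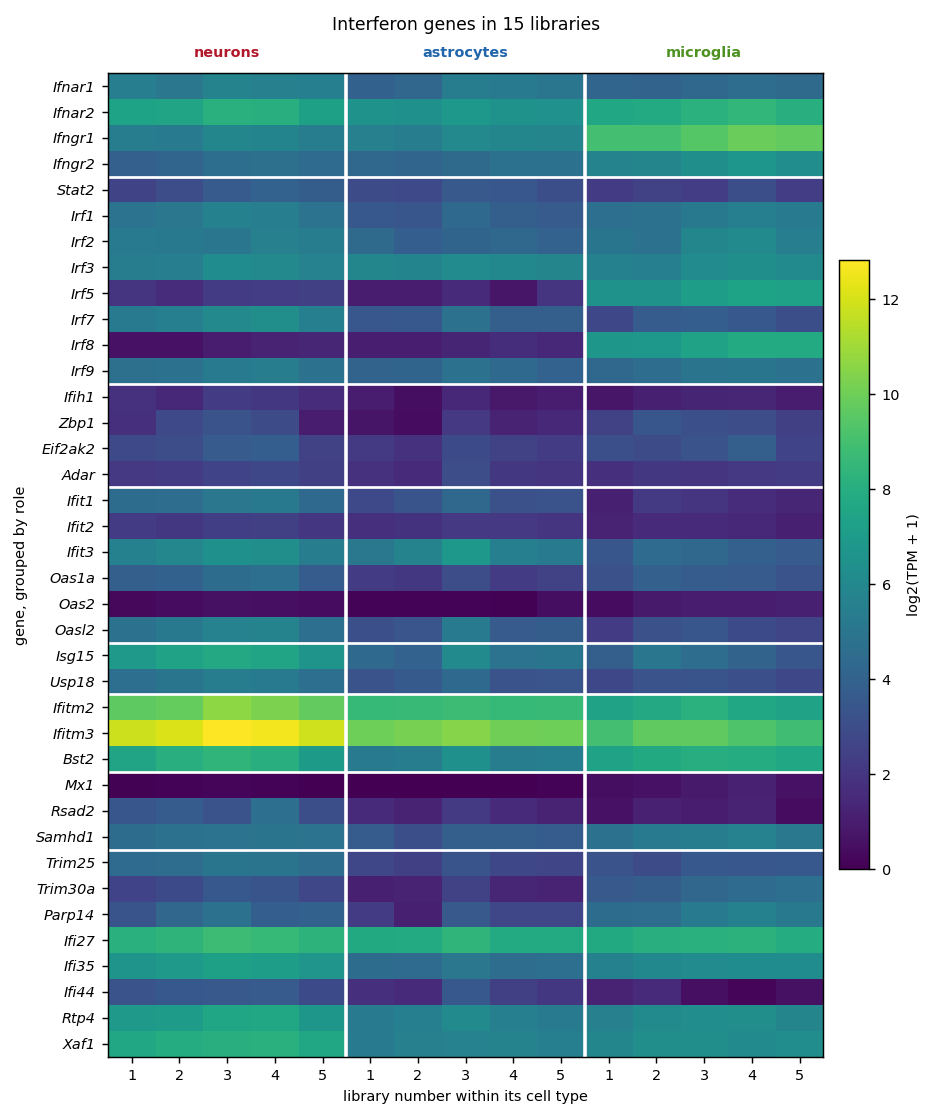
Levels of the 38 genes as log2(TPM + 1), 1 row per gene ordered by role and 1 column per library, with 5 neuron, 5 astrocyte and 5 microglia libraries. Ifitm3 and Ifitm2 are the brightest rows in neurons, Irf5, Irf8 and Ifngr1 stand out in microglia, and Mx1 and Oas2 are near 0 throughout.

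Promoter sequences of 31 of the 38 members were in a RefSeq table on GRCm38.p6 (38 windows, each from 250 bases before to 50 bases after a transcription start). Usp18, Oas2, Mx1, Ifi27, Rtp4, Parp14 and Zbp1 were not matched. Each window was searched on both strands for the ISRE letters GAAANNGAAA and the GAS letters TTCNNNGAA, where N is any base. The ISRE letters were in the windows of 13 of the 31 members and in 36.8% of the members' windows, against 3.44% of all 32851 windows in the table. GAS letters were in the windows of 13 members and 34.2% of the members' windows, against 8.30% of all windows, and overlapped an ISRE match in Bst2 and Ifitm3. By pattern, ISRE letters were found for 5 of the 10 matched members that were higher in neurons than in both others, 3 of the 7 lower in astrocytes, 1 of the 5 higher in microglia, Ifit3, and 3 of the 7 with no call. GAS letters were found for all 7 matched members lower in astrocytes, for 1 of the 10 higher in neurons, 1 of the 5 higher in microglia, 3 of the 7 with no call, and Ifnar1. Counted by gene, 3.99% of all 27025 genes with a window held ISRE letters and 9.55% held GAS letters. The patterns rest on calls at set thresholds in these data, and differences in letters between them were not tested. A match is a description of letters and shows no binding.

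The following stretches are the 150 bases before the start of 8 members, printed 5′ to 3′ in the gene's direction. ISRE matches that lie whole within a stretch are in capitals. They are shown because the first 6 genes carry ISRE letters and still differ in the pattern of their calls. Of these 6, Trim30a had its highest mean in microglia and the rest in neurons. The last 2 are microglial genes with no ISRE letters in the window.
Isg15, chr4:156200819-156200968, minus strand: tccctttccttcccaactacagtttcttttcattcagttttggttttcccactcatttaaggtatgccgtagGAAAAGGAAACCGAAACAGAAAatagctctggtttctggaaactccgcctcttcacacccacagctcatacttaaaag
Ifit1, chr19:34640739-34640888, plus strand: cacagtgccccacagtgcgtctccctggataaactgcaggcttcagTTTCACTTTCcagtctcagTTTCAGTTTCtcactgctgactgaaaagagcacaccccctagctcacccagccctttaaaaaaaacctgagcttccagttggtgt
Ifit3, chr19:34583379-34583528, plus strand: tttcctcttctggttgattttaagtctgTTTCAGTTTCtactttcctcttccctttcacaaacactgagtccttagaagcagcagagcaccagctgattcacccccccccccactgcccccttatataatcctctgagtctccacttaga
Bst2, chr8:71537473-71537622, minus strand: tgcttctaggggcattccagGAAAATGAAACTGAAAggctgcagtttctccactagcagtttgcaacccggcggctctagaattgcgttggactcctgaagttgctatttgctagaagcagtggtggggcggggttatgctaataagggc
Oas1a, chr5:120907526-120907675, minus strand: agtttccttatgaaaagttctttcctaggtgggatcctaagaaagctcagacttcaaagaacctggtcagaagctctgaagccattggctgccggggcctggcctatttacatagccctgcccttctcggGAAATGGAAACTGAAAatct
Trim30a, chr7:104465194-104465343, minus strand: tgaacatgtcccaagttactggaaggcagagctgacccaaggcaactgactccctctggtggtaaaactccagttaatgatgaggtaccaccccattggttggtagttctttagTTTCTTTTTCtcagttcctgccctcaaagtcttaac
Irf8, chr8:120736208-120736357, plus strand: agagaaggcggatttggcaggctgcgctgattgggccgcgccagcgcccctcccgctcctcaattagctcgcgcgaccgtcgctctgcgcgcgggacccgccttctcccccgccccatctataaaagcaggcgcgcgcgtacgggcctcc
Ifngr1, chr10:19591799-19591948, plus strand: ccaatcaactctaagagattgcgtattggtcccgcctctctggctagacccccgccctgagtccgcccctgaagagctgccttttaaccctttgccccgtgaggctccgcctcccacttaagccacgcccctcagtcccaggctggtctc
Isg15 holds 3 overlapping matches, which begin 78, 72 and 66 bases before the start. Bst2 and Oas1a each hold 2 that overlap, at 130 and 124 bases before the start in Bst2 and at 20 and 14 in Oas1a. In Ifit1 they lie apart, at 104 and 85 bases. Ifit3 has a second match that begins 156 bases before the start. It lies only in part within the printed stretch and is not in capitals. The match of Trim30a begins at 36 bases. Trim30a and Irf8 have a second start in the table, whose window is not printed.

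The fractions carried their own markers and also those of other cells. The 14 microglia markers summed to 76767 to 118333 TPM in the microglia libraries and at most 257 elsewhere, and the 10 astrocyte markers to 21138 to 24278 TPM in the astrocyte libraries and at most 666 elsewhere. In the neuron libraries the 11 neuron markers summed to 741 to 1877 TPM, against 139 to 260.5 in astrocytes and 19.6 to 106 in microglia. Of the 11, 10 had their highest mean in the neuron libraries and 1 in the astrocyte libraries. The neuron libraries also held the highest mean of all 13 endothelial markers, which summed to 3155 to 5055 TPM there, against 428 to 728 in astrocytes and only 99.2 to 169 in microglia, with none at 0 in a whole group. Cldn5, a tight-junction gene of brain endothelium, was at 977, 1162, 1773, 1553 and 1983 TPM in neuron libraries 1 to 5, above the synaptic gene Snap25 at 376, 279, 509.9, 427 and 786 TPM in the same libraries. Mural cell markers, 9 genes, summed to 1850.1 to 3894, 592 to 822 and 71.97 to 194 TPM in neurons, astrocytes and microglia. Of the 9, 7 had their highest mean in neurons and 2 in astrocytes. The 10 mature oligodendrocyte markers summed to 249 to 69430.2 TPM in microglia, with 121 to 10289 in neurons and 435 to 3795 in astrocytes. Border macrophage markers (8 genes) summed to 1273 to 1882 TPM and monocyte and neutrophil markers (9 genes) to 373 to 1009 TPM in microglia, and the first reached at most 75.4 and the second at most 34.95 in the other fractions. Ngp and Camp, both neutrophil genes, were at 0 in all 5 astrocyte libraries. The 2 red blood cell markers in the table of the 6 listed summed to 189 to 993 TPM in neurons, 4.16 to 10.4 in the astrocyte libraries and 1.16 to 6.13 in microglia, where Slc4a1 was at 0 in all 5. The 7 lymphocyte markers were lowest in astrocytes, at 3.77 to 9.69 TPM, with 17.04 to 60.4 in neurons and 17.4 to 48.05 in microglia, and the 5 fibroblast markers lowest in microglia, at 11.7 to 28.9 TPM, with 80.7 to 202 in neurons and 128 to 166 in astrocytes. Endothelial, mural and red blood cell marker sums were thus highest in the neuron fraction, in which 12 members were called higher than in both others. Lymphocyte levels moved with the pattern of the 9 members called lower in astrocytes. The part of all these cells in those results was not tested. In bulk fractions, fewer cells of a type and less RNA per cell cannot be told apart.

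The receptor chains differed by ligand. Ifngr1 and Ifngr2, the chains that bind interferon-gamma, were higher in microglia, whereas the type I chain Ifnar2 was lowest in astrocytes and Ifnar1 was higher in neurons than in microglia. Ifngr1 (chr10:19591949-19610229 in mm10) was at 42.7, 38.7, 58.5, 54.8 and 40.9 TPM in neuron libraries 1 to 5, 47.2, 40.6, 64.2, 58.8 and 56.4 TPM in the astrocyte libraries and 507, 507, 694, 937 and 839 TPM in the microglia libraries. All 5 microglia libraries lay above all others, and neurons and astrocytes overlapped. The log2 difference was -3.83 (SE 0.19, adjusted p = 5.22e-12) for neurons minus microglia and -3.65 (SE 0.19, adjusted p = 7.47e-12) for astrocytes minus microglia, against -0.18 (SE 0.19, adjusted p = 0.438) for neurons minus astrocytes. Ifngr2 ranged over 14.1 to 25.4 TPM in neurons, 17.04 to 27.1 TPM in astrocytes and 51.9 to 107 TPM in microglia, and microglia exceeded neurons 3.51-fold and astrocytes 3.21-fold (adjusted p = 3.88e-07 and 8.91e-07). Microglia did not overlap the other fractions for this chain either.

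Ifnar2 (chr16:91372783-91405589) was at 172, 179.9, 278, 268 and 152 TPM in neuron libraries 1 to 5, 95.7, 84.8, 111, 94.7 and 88.1 TPM in the astrocyte libraries and 199.98, 230.4, 288, 354 and 271 TPM in the microglia libraries. Astrocytes were below every neuron and microglia library, and the highest astrocyte library had 111 TPM. Its log2 difference was 1.10 (SE 0.18, adjusted p = 5.06e-05) for neurons minus astrocytes and -1.47 (SE 0.18, adjusted p = 8.89e-07) for astrocytes minus microglia. The first value was 0.99 without neuron library 3, just under the minimum of 1. Ifnar1 (chr16:91485238-91507441) was at 43.3, 32.4, 52.2, 46.9 and 45.98 TPM in neuron libraries 1 to 5, 14.5, 17.5, 42.6, 36.95 and 31.3 TPM in the astrocyte libraries and 16.97, 15.8, 18.97, 23.2 and 20.6 TPM in the microglia libraries. Neurons were above every microglia library, and the astrocyte libraries were spread from microglial to neuronal levels, with libraries 1 and 2 low and 3 to 5 high. Neurons exceeded microglia by 1.16 (SE 0.24, adjusted p = 0.000354) on the log2 scale, which fell below the minimum under both rescalings of the libraries (0.57 with median-of-ratios factors and 0.82 with quantile normalization). In levels per length, Ifnar2 was above Ifnar1 in each of the 15 libraries, and in microglia Ifngr1 was the most abundant of the 4 chains. Ifnar2, Ifnar1 and Ifngr2 lie in that order on the plus strand of chromosome 16 between 91372783 and 91565623, with Il10rb between Ifnar2 and Ifnar1.

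Stat2, the partner of IRF9 in the type I complex, had no call: it was at 5.23, 7.16, 11.8, 15.1 and 12.9 TPM in neuron libraries 1 to 5, 6.86, 6.11, 10.8, 10.1 and 7.59 TPM in the astrocyte libraries and 3.64, 4.78, 3.97, 7.45 and 3.97 TPM in the microglia libraries. The groups overlapped, with neuron library 4 highest and microglia library 1 lowest. Neurons minus microglia was 0.94 (SE 0.25, adjusted p = 0.00311), and it passed the minimum without neuron library 1 (1.14), neuron library 2 (1.04) or microglia library 4 (1.09), without all libraries numbered 1 and 2 (1.26) and with a pseudocount of 0.1 (1.06). Irf9, the DNA-binding part of the same complex, ranged over 25.6 to 40.6 TPM in neurons, 15.4 to 27.6 TPM in astrocytes and 18.3 to 30.9 TPM in microglia and had no call in any comparison (log2 differences of 0.72, 0.30 and -0.42 for neurons minus astrocytes, neurons minus microglia and astrocytes minus microglia). With median-of-ratios scaling the last was -1.08 and called. Irf9 shares exon sequence with Rnf31 on the same strand, so its reads are less certain. Irf3, a factor that is present before infection and induces interferon, was the most even of its family at 41.2 to 73.4 TPM in neurons, 54.7 to 70.5 TPM in astrocytes and 44.5 to 82.6 TPM in microglia, and none of its differences exceeded 0.21 in size. Its exons overlap Bcl2l12 on the opposite strand.

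Irf8 and Irf5, known as factors of the myeloid lineage, were far lower outside microglia. Irf8 (chr8:120736358-120756694) was at 0.53, 0.52, 0.95, 1.43 and 1.62 TPM in neuron libraries 1 to 5, 1.1, 1.08, 1.47, 2.21 and 1.71 TPM in the astrocyte libraries and 111, 115, 165, 229.9 and 227 TPM in the microglia libraries. Every microglia library was at 110.7 TPM or more and none of the other 10 was above 2.21 TPM. Neurons minus microglia was -6.37 (SE 0.23, adjusted p = 1.23e-13) and astrocytes minus microglia -6.03 (SE 0.23, adjusted p = 1.97e-13) on the log2 scale, the largest among the 36 genes. Irf5 was at 2.97, 2.08, 3.9, 4.02 and 4.32 TPM in neuron libraries 1 to 5, 1.02, 0.99, 1.87, 0.72 and 2.9 TPM in the astrocyte libraries and 92.5, 93.3, 145, 171 and 163 TPM in the microglia libraries, with differences of -4.89 (SE 0.24, adjusted p = 8.08e-12) and -5.76 (SE 0.24, adjusted p = 6.45e-13) in the same comparisons. Microglia were again separate from both other fractions. Neurons minus astrocytes was 0.87 (SE 0.24, adjusted p = 0.00584) for Irf5 and passed the minimum without neuron library 2 (1.0), without astrocyte library 5 (1.05) and with a pseudocount of 0.1 (1.27). Markers of border macrophages, monocytes and neutrophils were highest in the same libraries, and their part in the microglial levels of Irf8, Irf5 and the interferon-gamma receptor was not tested. Exons of Irf5 and Tnpo3 overlap on opposite strands.

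Irf7, the factor that amplifies type I interferon production and is itself interferon-induced, showed the opposite order. It (chr7:141262706-141266481) was at 37.4, 46.04, 64.4, 79.3 and 44.8 TPM in neuron libraries 1 to 5, 10.2, 10.8, 26.99, 13.7 and 13.7 TPM in the astrocyte libraries and 5.96, 12.1, 13.1, 10.4 and 7.35 TPM in the microglia libraries. All neuron libraries exceeded all others, and astrocyte library 3 lay well above the other 4 astrocyte libraries, whose highest was 13.7 TPM. Neurons differed by 1.82 (SE 0.26, adjusted p = 1.52e-05) on the log2 scale against astrocytes and 2.36 (SE 0.26, adjusted p = 3.47e-07) against microglia. Astrocytes minus microglia was 0.54 (SE 0.26, adjusted p = 0.0746) and was not called, and its sign turned with median-of-ratios scaling (-0.094). Phrf1 overlaps the exons of Irf7 on the opposite strand.

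Irf1, an activator that interferon-gamma induces, and Irf2, its antagonist at the same sites, were both lower in astrocytes than in both other fractions. Irf1 was at 28.5, 32.98, 48.9, 44.4 and 28.8 TPM in neuron libraries 1 to 5, 10.7, 9.71, 19.6, 13.7 and 11.8 TPM in the astrocyte libraries and 24.6, 26.5, 35.1, 45.5 and 37.6 TPM in the microglia libraries. Astrocytes did not overlap the others, and neurons and microglia did. Its log2 difference was 1.42 (SE 0.21, adjusted p = 1.93e-05) for neurons minus astrocytes and -1.31 (SE 0.21, adjusted p = 2.47e-05) for astrocytes minus microglia. Irf2 ranged over 31.6 to 47.1 TPM in neurons, 13.3 to 20.7 TPM in astrocytes and 27.1 to 66.9 TPM in microglia, 2.22-fold higher in neurons and 2.46-fold higher in microglia than in astrocytes (adjusted p = 0.000188 and 2.95e-05). Without all libraries numbered 3 and 4, the difference of Irf2 between astrocytes and microglia was -0.99 and no longer called.

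**Figure D2:**
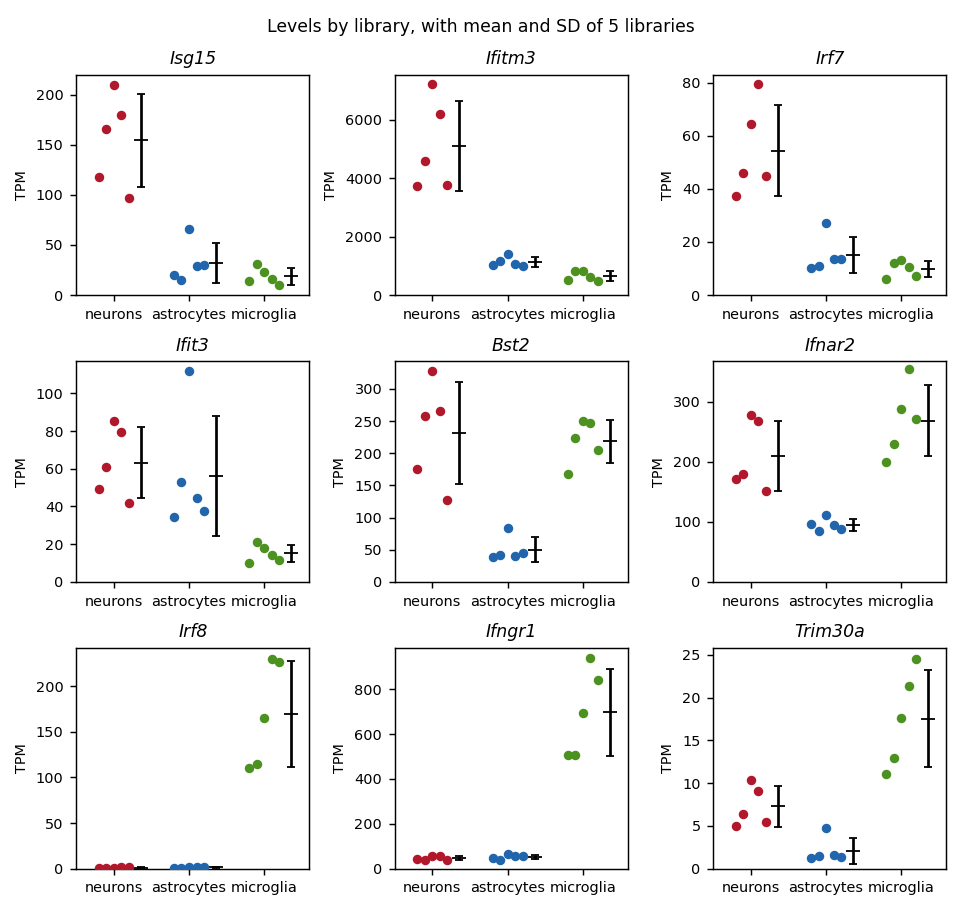
Level in TPM of 9 of the genes in each library, with 1 panel per gene, 1 point per library and the mean ± SD over 5 libraries of each fraction. Isg15, Ifitm3 and Irf7 are highest in neurons, Irf8, Ifngr1 and Trim30a in microglia, Bst2 and Ifnar2 are lowest in astrocytes, and Ifit3 is lowest in microglia with 1 astrocyte library at 112 TPM.

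Of the 4 genes that sense or edit nucleic acid, Zbp1 was the one called. Ifih1 and Eif2ak2 had adjusted p-values below 0.05 with differences under the minimum size. Zbp1, which binds Z-form nucleic acid and can start necroptosis, was at 2.41, 6.07, 8.79, 6.95 and 0.97 TPM in neuron libraries 1 to 5, 0.65, 0.36, 3.38, 1.36 and 1.76 TPM in the astrocyte libraries and 4.84, 9.95, 7.89, 7.06 and 4.46 TPM in the microglia libraries. Microglia were above every astrocyte library, and neuron libraries 1 and 5 fell within the astrocyte range while 2, 3 and 4 lay above it. Astrocytes were lower than both, with astrocytes minus microglia at -1.72 (SE 0.39, adjusted p = 0.000797) and neurons minus astrocytes at 1.17 (SE 0.39, adjusted p = 0.0182). The call against neurons was lost without neuron library 3 (adjusted p = 0.0558), neuron library 4 (0.0504) or astrocyte library 2 (0.0528). It was also lost without all libraries numbered 1 and 2 (adjusted p = 0.220) or 3 and 4 (0.0792). The call against microglia was lost without all libraries numbered 1 and 2 (adjusted p = 0.0508).

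Ifih1 (MDA5, a sensor of long double-stranded RNA), Eif2ak2 (PKR, a kinase that halts translation on double-stranded RNA) and Adar (which edits adenosine in double-stranded RNA) had no call in any comparison. Ifih1 ranged over 1.68 to 3.64 TPM in neurons, 0.4 to 1.8 TPM in astrocytes and 0.74 to 1.64 TPM in microglia. Eif2ak2 was at 4.8 to 13.2 TPM in neurons, 2.6 to 6.3 TPM in astrocytes and 4.9 to 13.7 TPM in microglia, and Adar at 3.4 to 5.85 TPM in neurons, 1.99 to 7.04 TPM in astrocytes and 2.3 to 3.85 TPM in microglia. All 3 groups overlapped for Adar. Ifih1 had its highest mean in neurons, with log2 differences of 0.87 (SE 0.20, adjusted p = 0.00111) from astrocytes and 0.69 (SE 0.20, adjusted p = 0.00444) from microglia. Both passed the minimum of 1 with a pseudocount of 0.1, at 1.38 and 1.03. Eif2ak2 had its lowest mean in astrocytes, with neurons minus astrocytes at 0.86 (SE 0.28, adjusted p = 0.0141) and astrocytes minus microglia at -0.83 (SE 0.28, adjusted p = 0.0122). The first passed the minimum without neuron library 5 (1.02), and the second under both rescalings (-1.43 and -1.37).

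Of the 6 antiviral genes of the IFIT and OAS families, Ifit1 and Oasl2 were called higher in neurons than in both other fractions, Oas1a lower in astrocytes and Ifit3 lower in microglia. Ifit1, whose product binds the 5′ end of viral RNA, (chr19:34640871-34650009) was at 22.2, 22.9, 32.4, 34.9 and 20.1 TPM in neuron libraries 1 to 5, 6.08, 9.16, 18.9, 8.14 and 8.77 TPM in the astrocyte libraries and 1.19, 3.59, 2.77, 2.13 and 1.59 TPM in the microglia libraries. The 3 fractions did not overlap, and astrocyte library 3 had over 2 times the level of each of the other 4 astrocyte libraries. Neurons minus astrocytes was 1.36 (SE 0.26, adjusted p = 0.000276), neurons minus microglia 3.10 (SE 0.26, adjusted p = 9.04e-09) and astrocytes minus microglia 1.74 (SE 0.26, adjusted p = 1.07e-05) on the log2 scale. Ifit3 (chr19:34583531-34588731) was at 49.1, 60.8, 85.2, 79.5 and 41.9 TPM in neuron libraries 1 to 5, 34.4, 52.8, 112, 44.7 and 37.5 TPM in the astrocyte libraries and 9.94, 21.2, 18.2, 14.4 and 11.8 TPM in the microglia libraries. Neurons and astrocytes overlapped, and astrocyte library 3 was the highest of all 15. The difference was 0.26 (SE 0.29, adjusted p = 0.474) between neurons and astrocytes, and microglia were 3.99-fold lower than neurons and 3.34-fold lower than astrocytes (adjusted p = 7.21e-06 and 3.17e-05). Ifit2 ranged over 3.11 to 4.33 TPM in neurons, 2.44 to 3.42 TPM in astrocytes and 1.2 to 2.03 TPM in microglia and had no call, though neurons minus microglia, 0.84, was 1.14 and called with a pseudocount of 0.1. These genes lie together on chromosome 19 between 34550694 and 34650009 with Ifit1bl1, Ifit3b and Ifit1bl2. Ifit3 and Ifit3b are near copies, so the split of reads between them is uncertain, as it is for Ifit1 and its copies.

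Oas1a, a synthase of the second messenger that activates RNase L, was at 13.6, 14.7, 21.9, 24.3 and 12.1 TPM in neuron libraries 1 to 5, 3.89, 3.29, 7.18, 3.71 and 4.81 TPM in the astrocyte libraries and 8.03, 14.04, 12.2, 11.6 and 8.86 TPM in the microglia libraries. Astrocytes were the lowest fraction without overlap, and microglia reached into the neuronal range. The log2 difference was 1.71 (SE 0.22, adjusted p = 4.37e-06) for neurons minus astrocytes and -1.11 (SE 0.22, adjusted p = 0.000227) for astrocytes minus microglia, and the second was lost without all libraries numbered 1 and 2 (log2 difference -0.96). Its near copy Oas1g makes the assignment of reads uncertain. Oasl2, an OAS-like protein, was at 26.4, 34.8, 49.9, 51.8 and 24.6 TPM in neuron libraries 1 to 5, 7.89, 9.29, 38.6, 12.03 and 12.8 TPM in the astrocyte libraries and 3.68, 8.17, 9.94, 6.47 and 5.38 TPM in the microglia libraries. Neurons exceeded all microglia libraries, and of the astrocyte libraries library 3 alone reached the neuronal range. Oasl2 was 2.53-fold higher in neurons than in astrocytes and 4.96-fold higher than in microglia (adjusted p = 0.00324 and 1.11e-05), and the first call was lost without all libraries numbered 1 and 2 (adjusted p = 0.0573). Astrocytes minus microglia, at 0.97 (SE 0.34, adjusted p = 0.0178), passed the minimum without astrocyte library 1, 2 or 4 or microglia library 2 or 3, at 1.01 to 1.15. Oas2 was not tested, as it reached at most 1.19 TPM, in microglia, with maxima of 0.48 in neurons and 0.41 in astrocytes.

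Isg15, a ubiquitin-like protein that is attached to other proteins, had one of the largest neuronal excesses. It (chr4:156199424-156200818) was at 118, 166, 210.3, 180.4 and 97.3 TPM in neuron libraries 1 to 5, 19.6, 15.2, 65.8, 28.9 and 30.2 TPM in the astrocyte libraries and 13.7, 31.3, 23.1, 16.1 and 9.74 TPM in the microglia libraries. Every neuron library was above every other library, and astrocyte library 3 stood above the other 4 astrocyte libraries, the highest of which had 30.2 TPM. The log2 difference was 2.36 (SE 0.34, adjusted p = 1.46e-05) against astrocytes and 3.03 (SE 0.34, adjusted p = 3.96e-07) against microglia, or 5.15-fold and 8.15-fold. Among the neuron libraries, library 3 held the most Isg15 and the highest summed endothelial markers, at 5055 TPM. Library 5 held the least Isg15, and its endothelial sum, 4525 TPM, was above those of libraries 1 and 2 (3155 and 3373 TPM). It also held the most Cldn5 and the least Pecam1, another endothelial gene. The part of endothelial RNA in the Isg15 level was not tested. Usp18, the protease that removes ISG15 and restrains the type I receptor, ranged over 24.5 to 40.5 TPM in neurons, 8.62 to 19.97 TPM in astrocytes and 5.77 to 8.94 TPM in microglia. The neuron libraries lay above all others, with differences of 1.43 (SE 0.22, adjusted p = 2.86e-05) and 1.96 (SE 0.22, adjusted p = 3.47e-07) in the same comparisons.

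Among the genes of membrane proteins, Ifitm3 and Ifitm2 were the most abundant of all 38 members in the neuron and astrocyte libraries. Bst2 was lowest in the astrocyte libraries. Summed endothelial and mural markers were highest in the neuron libraries too, and their part in these levels was not tested. Ifitm3, which blocks viral fusion in endosomes, (chr7:141009586-141010770) was at 3726, 4589.9, 7214, 6209.6 and 3783 TPM in neuron libraries 1 to 5, 1019, 1166, 1417, 1047 and 1000.4 TPM in the astrocyte libraries and 512, 833, 833, 629 and 479 TPM in the microglia libraries. The fractions did not overlap, in the order neurons, astrocytes, microglia. Neurons exceeded astrocytes by 2.14 (SE 0.20, adjusted p = 9.03e-08) and microglia by 2.94 (SE 0.20, adjusted p = 6.01e-10), and astrocytes minus microglia was 0.81 (SE 0.20, adjusted p = 0.00171), under the minimum size. Ifitm2, its neighbour with a related function, ranged over 794 to 1591 TPM in neurons, 382 to 439.98 TPM in astrocytes and 166 to 289.9 TPM in microglia, again in that order and without overlap. Its neuronal level was 2.54-fold that of astrocytes and 5.102-fold that of microglia (adjusted p = 8.09e-06 and 3.74e-09), and astrocytes minus microglia was 1.0 (SE 0.19, adjusted p = 0.000104), a call that was lost under both rescalings (0.32 and 0.81). It was also lost without astrocyte library 3 or 5, without microglia library 1, 4 or 5, without microglia libraries 1 and 2 and without all libraries numbered 1 and 2, at 0.93 to 0.99 log2 units. Members of this family are similar in sequence, so reads may be split between them.

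Bst2 (tetherin, which holds budding virions at the cell surface) (chr8:71534255-71537456) was at 175, 259, 328, 266 and 127 TPM in neuron libraries 1 to 5, 38.6, 41.7, 84.3, 40.4 and 45.4 TPM in the astrocyte libraries and 168, 223, 249, 246 and 205 TPM in the microglia libraries. The microglia libraries lay within the neuronal range, and all astrocyte libraries lay below both, with library 3 at 84.3 TPM and the other 4 at 45.4 TPM or less. Log2 differences were 2.17 (SE 0.24, adjusted p = 6.61e-07) for neurons minus astrocytes, -2.15 (SE 0.24, adjusted p = 3.08e-07) for astrocytes minus microglia and 0.018 (SE 0.24, adjusted p = 0.951) for neurons minus microglia. The last value turned sign under both rescalings (-0.59 and -0.26).

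Other effectors divided between these patterns. Rsad2 encodes viperin, an enzyme that makes a chain-terminating nucleotide. It ranged over 7.46 to 24.6 TPM in neurons, 1.3 to 3.6 TPM in astrocytes and 0.34 to 1.45 TPM in microglia. Its mean levels were 12.6, 2 and 0.93 TPM in the same order. On the TPM + 1 scale it was 4.295-fold higher in neurons than in astrocytes and 6.62-fold higher than in microglia (adjusted p = 5.48e-06 and 1.12e-07). Samhd1, which degrades deoxynucleotides, ranged over 22.2 to 29.9 TPM in neurons, 7.53 to 13.6 TPM in astrocytes and 26.4 to 50.5 TPM in microglia, and astrocytes were 2.21-fold below neurons and 3.02-fold below microglia (adjusted p = 3.42e-05 and 3.12e-07). Astrocyte library 2 held the lowest Samhd1 value. Mx1, a GTPase that blocks influenza, was near 0, at most 0.15 TPM in neurons and 0.08 in astrocytes and 0.37 to 1.23 TPM in microglia, and was not tested.

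Trim30a, a negative regulator of Toll-like receptor signalling, (chr7:104409025-104465193) was at 4.96, 6.4, 10.4, 9.12 and 5.52 TPM in neuron libraries 1 to 5, 1.21, 1.44, 4.72, 1.59 and 1.37 TPM in the astrocyte libraries and 11.04, 12.9, 17.7, 21.4 and 24.6 TPM in the microglia libraries. Microglia were above every other library, neurons above every astrocyte library, and astrocyte library 3 stood at 4.72 TPM above the other 4, at 1.21 to 1.59 TPM. The log2 differences were 1.49 (SE 0.28, adjusted p = 0.000203) for neurons minus astrocytes, -1.15 (SE 0.28, adjusted p = 0.00133) for neurons minus microglia and -2.64 (SE 0.28, adjusted p = 1.34e-07) for astrocytes minus microglia. The gene has close relatives, Trim30d among them. Trim25, the ubiquitin ligase that activates RIG-I, ranged over 21.1 to 30.2 TPM in neurons, 4.36 to 8.94 TPM in astrocytes and 6.91 to 10.7 TPM in microglia. It was 3.76-fold higher in neurons than in astrocytes (adjusted p = 7.03e-08) and by 1.33 (SE 0.18, adjusted p = 2.92e-06) on the log2 scale higher than in microglia, the latter lost under both rescalings (0.76 and 0.96). Parp14, an ADP-ribosyltransferase, was at 8.99, 17.6, 27.4, 13.4 and 14.6 TPM in neuron libraries 1 to 5, 3.63, 1.2, 10.9, 5.52 and 5.7 TPM in the astrocyte libraries and 21.9, 22.7, 35.9, 49.4 and 35.8 TPM in the microglia libraries. Astrocytes were the lowest fraction, with only library 3 inside the neuronal range. Neurons minus astrocytes was 1.56 (SE 0.36, adjusted p = 0.00151) and astrocytes minus microglia -2.56 (SE 0.36, adjusted p = 6.11e-06), while neurons minus microglia was -0.99 (SE 0.36, adjusted p = 0.0225), just short of the minimum size. Without neuron library 2 or 3 or microglia library 1 or 2 the last value passed the minimum, at -1.04, -1.19, -1.12 and -1.11.

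Among the remaining induced genes, Xaf1, a proapoptotic partner of XIAP, (chr11:72301629-72313733) was at 207, 241, 269, 278 and 198 TPM in neuron libraries 1 to 5, 39.2, 47.3, 50.4, 51.8 and 45.4 TPM in the astrocyte libraries and 58.3, 78.2, 80.8, 67.9 and 76.5 TPM in the microglia libraries. Every neuron library was over 2 times any other library, and astrocyte library 3 did not stand apart from the rest of its group. Xaf1 differed by 2.32 (SE 0.13, adjusted p = 9.13e-11) against astrocytes and 1.70 (SE 0.13, adjusted p = 2.48e-09) against microglia. Ifi35 was at 98.4, 116, 157, 143 and 102 TPM in neuron libraries 1 to 5, 21.9, 21.4, 33.02, 23.04 and 24.4 TPM in the astrocyte libraries and 47.9, 61.7, 71.4, 74.7 and 74.8 TPM in the microglia libraries. The 3 fractions did not overlap, in the order neurons, microglia, astrocytes, with neurons minus astrocytes at 2.26 (SE 0.17, adjusted p = 3.36e-09), astrocytes minus microglia at -1.38 (SE 0.17, adjusted p = 7.76e-07) and neurons minus microglia, at 0.88 (SE 0.17, adjusted p = 0.000138), short of the minimum size. Rtp4, a chaperone-like gene of receptor transport, ranged over 111 to 196 TPM in neurons, 38.4 to 69.1 TPM in astrocytes and 47.4 to 79.2 TPM in microglia, 3.06-fold higher in neurons than in astrocytes (adjusted p = 2.01e-06), and its 1.16 (log2) over microglia was under 1 after both rescalings (0.55 and 0.84).

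Ifi44 was at 8.57, 10.7, 11.1, 12.01 and 6.43 TPM in neuron libraries 1 to 5, 2.36, 1.9, 10.4, 4.29 and 3.22 TPM in the astrocyte libraries and 1.41, 2, 0.42, 0.13 and 0.49 TPM in the microglia libraries. Microglia held the lowest values, the highest of which just overlapped the lowest astrocyte value, and astrocyte library 3 reached the neuronal range. Its differences were 1.14 (SE 0.33, adjusted p = 0.0074) for neurons minus astrocytes and 1.43 (SE 0.33, adjusted p = 0.000871) for astrocytes minus microglia. The call against neurons was lost without astrocyte library 2 (log2 difference 0.96) and without all libraries numbered 1 and 2 (adjusted p = 0.108). That against microglia was lost with quantile normalization (log2 difference 0.77) and without all libraries numbered 3 and 4 (0.64). Ifi27, in contrast, had one of the most even levels, 277 to 448 TPM in neurons, 221 to 337 TPM in astrocytes and 221 to 298 TPM in microglia, with no call. Under the minimum size, neurons minus astrocytes was 0.49 (SE 0.15, adjusted p = 0.00963) and neurons minus microglia 0.40 (SE 0.15, adjusted p = 0.0237). The second turned sign with median-of-ratios scaling (-0.21).

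**Figure D3:**
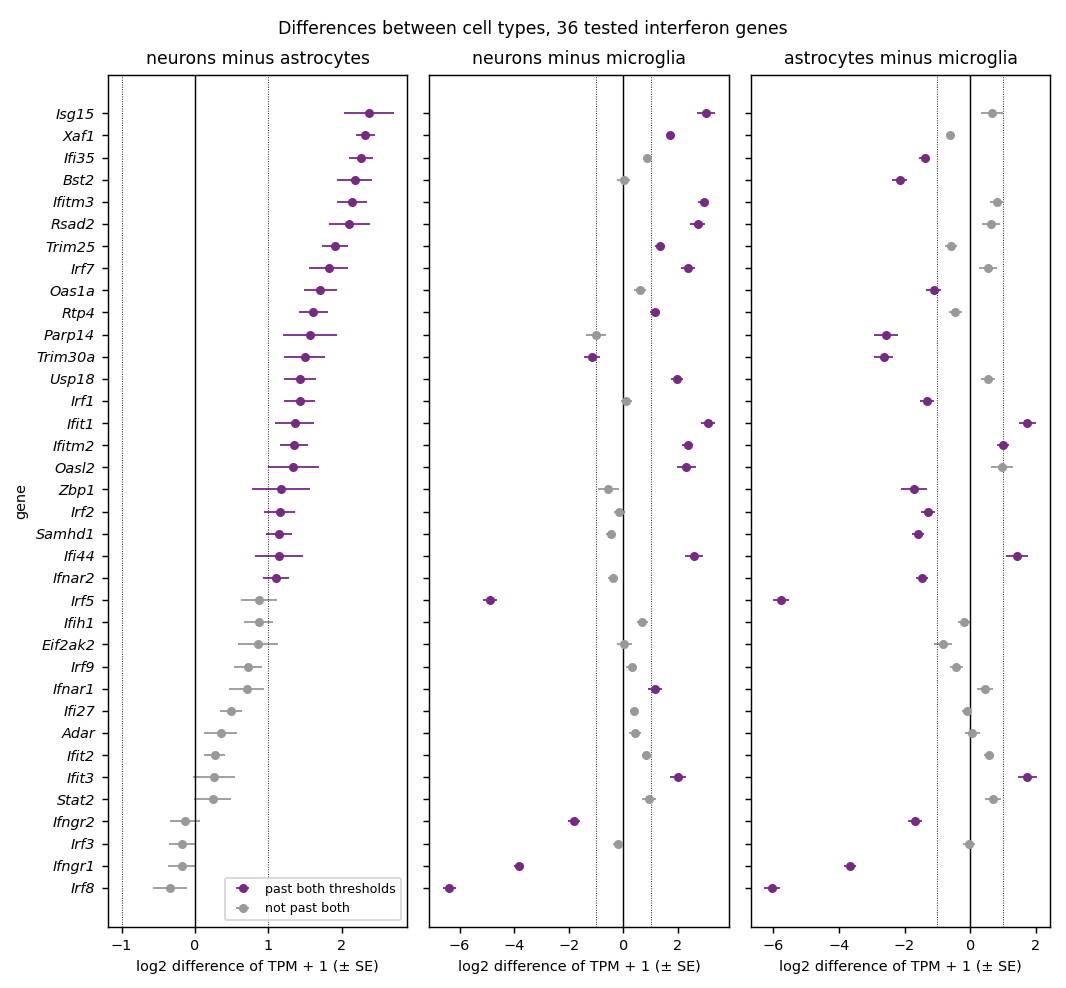
Log2 difference with its standard error for the tested members, in the 3 comparisons (neurons minus astrocytes, neurons minus microglia, astrocytes minus microglia), with 5 libraries per fraction. No member lies to the astrocyte side by 1 or more in the first comparison, and Irf8, Irf5 and Ifngr1 lie farthest to the microglial side in the other comparisons.

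Within the astrocyte fraction, library 3 held the highest value of 29 of the 36 tested members, whereas it was the highest of the 5 for 50.8% of all tested genes. It was at least 1 log2 unit above the median of the other 4 for 12 of the 36, against 1.55% of all tested genes. The median excess over the other 4 was 0.67 for members and 0.27 for all tested genes. Ratios to the median of the other 4 were 3.74 for Ifi44, 3.62 for Oasl2, 3.36 and 3.36 for Zbp1 and Trim30a, and 2.72 and 2.72 for Ifit3 and Isg15. By contrast, it was 1.37 for Ifitm3 and 1.09 for Xaf1, genes that are also interferon-induced. The summed endothelial markers were also highest in astrocyte library 3, at 728 TPM against 428 to 681 TPM in the other 4, and their part in its levels was not tested. Without this library 22 members were still called higher in neurons than in astrocytes and 3, not 4, higher in astrocytes than in microglia, and the neuronal excess of Isg15 was 2.66 in place of 2.36 log2 units.

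In the neuron fraction, libraries 3 and 4 held the highest value of 18 and 16 of the 36 tested members, beside 29.0% and 37.7% of all tested genes, and libraries 1 and 5 the lowest of 16 and 14, beside 27.1% and 12.5%. Libraries 3 and 4 also held the highest summed endothelial markers (5055 and 5003 TPM) and mural markers (3894 and 3352 TPM). In libraries 1, 2 and 5 the endothelial sums were 3155, 3373 and 4525 TPM and the mural sums 1850.1, 1892 and 2641 TPM. Library 5, lowest for 14 members, was thus above libraries 1 and 2 in both sums. The part of endothelial and mural RNA in the levels of the members was not tested. Microglia library 1 held the lowest value of 22 members (42.5% of all tested genes), and library 4 the highest of 18 (33.1%). Microglia libraries 1 and 2 also held the most oligodendrocyte transcripts, Mog being at 593, 841, 179, 3.75 and 92.6 TPM in libraries 1 to 5. Without both, 22 members were called higher in neurons than in astrocytes, 14 higher in neurons than in microglia and 6, not 5, the reverse.

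**Figure D4:**
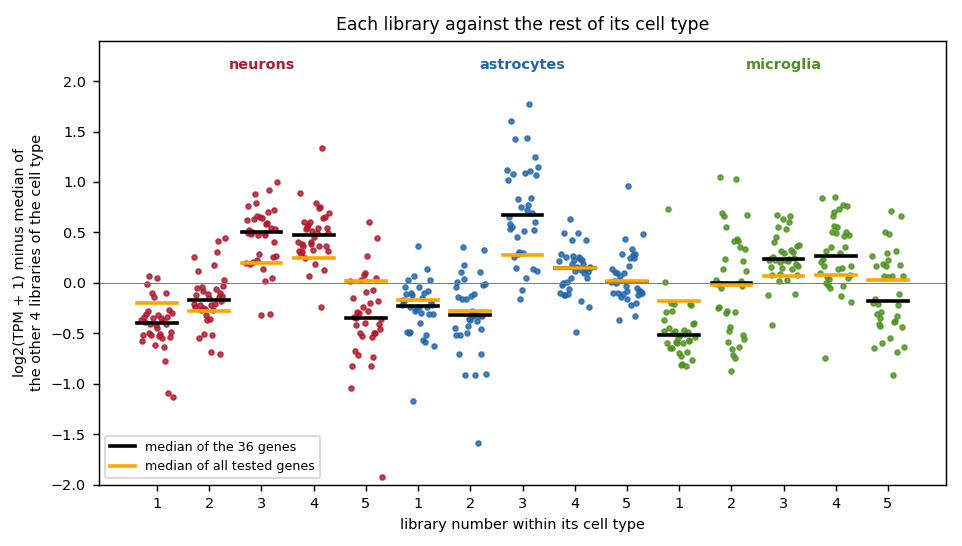
Log2 excess of each library over the median of the other 4 libraries of its fraction, with 1 point per tested member and the median over members and over all tested genes. Astrocyte library 3 is displaced upward for members (median 0.67) more than for all tested genes (median 0.27).

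The interferons themselves were barely represented. Of 13 ligand genes in the table, 8 were at 0 in all 15 libraries, and 14 of the 195 values were above 0. The highest was 0.85 TPM, for Ifna14 in astrocyte library 3, and Ifng, the gene of interferon-gamma, was above 0 in 9 libraries with a maximum of 0.29 TPM. None could be tested, and the depth behind a TPM of 0 is unknown.

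Other genes of the pathway, in lists chosen by function and with earlier results of these data known, followed the members in part. Of 17 kinases, STATs and feedback regulators, 13 were tested. Of these, 3 were called higher in neurons than in astrocytes (12.9% of all tested genes) and 0 the reverse (12.7%). Between microglia and neurons, 2 were called higher in microglia (9.74%) and 0 the reverse (29.5%). Between microglia and astrocytes, 4 were called higher in microglia (10.2%) and 0 the reverse (32.3%). The counts higher in microglia were 6 and 8 with median-of-ratios scaling. At an unadjusted limma p below 0.05, 1 was higher in astrocytes than in neurons, 2 in neurons than in microglia and 2 in astrocytes than in microglia. Ptpn6 (SHP-1, a phosphatase that dampens receptor signalling) was at 135 to 255 TPM in microglia, 1.21 to 16.01 in neurons, where libraries 1 and 2 were high, and 1.37 to 2.86 in astrocytes. Socs3, a feedback inhibitor, was at 7.3 to 21.3, 0.8 to 4.41 and 0.74 to 1.33 TPM in the same order. Il10rb, a receptor chain shared with type III interferons, was lower in astrocytes, at 22.2 to 34.4 TPM, than in neurons (84.3 to 112) and microglia (92.3 to 155), the pattern of its neighbour Ifnar2. Ptpn11 (SHP-2) was at 17.1 to 19.01 TPM in neurons and 7.01 to 8.56 in astrocytes, without overlap, with a log2 difference of 1.18 (SE 0.19, adjusted p = 5.40e-05). The kinase gene Tyk2, named after its values were seen, was the fourth called lower in astrocytes than in microglia (-1.08).

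All 14 genes of nucleic acid sensing and interferon induction were tested. Of these, 8 were called higher in microglia than in neurons (9.74% of all tested genes) and 0 the reverse (29.5%). At an unadjusted limma p below 0.05, 1 was higher in neurons than in microglia. Microglia were higher than astrocytes for 8 (10.2%) and lower for 1 (32.3%). Neurons and astrocytes were each higher than the other for 1 (Aim2 and Mavs), beside 12.9% and 12.7% of all tested genes. Sting1, the adaptor of cytosolic DNA sensing, was at 289 to 596 TPM in microglia and far lower in neurons (2.95 to 6.49 TPM) and astrocytes (4.46 to 7.66 TPM). Unc93b1, which carries nucleic-acid-sensing Toll-like receptors to endosomes, reached 445 to 875 TPM in microglia and at most 18.1 elsewhere. The DNA sensor Aim2 and the DNA exonuclease Trex1 were called higher in microglia than in both other fractions, with levels of 15.4 to 37.99 and 146 to 281 TPM there and astrocytes minus microglia at -3.81 and -2.77. Exceptions were Mavs, the adaptor of RIG-I and MDA5, which was called lower in neurons than in astrocytes, by a log2 difference of -1.52 (SE 0.18, adjusted p = 1.58e-06), and the kinase gene Ikbke, called higher in astrocytes than in microglia at 2.28 TPM or less, by 1.35 (SE 0.13, adjusted p = 3.17e-08). The call of Aim2 between neurons and astrocytes was lost without neuron library 3, and no gene of this list was called higher in astrocytes than in microglia without astrocyte library 3, 4 or 5 or with quantile normalization.

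Of 43 other tested genes known to be induced by type I interferon, 14 were called higher in neurons than in astrocytes and 2 the reverse. The shares of all tested genes were 12.9% and 12.7%. For neurons and microglia the counts were 7 and 14, beside 29.5% and 9.74% of all tested genes. For astrocytes and microglia they were 3 and 19, beside 32.3% and 10.2%. Ifitm1, a relative of Ifitm3, had the same order of levels as Ifitm3, with 645 to 938 TPM in neurons, then 345 to 413 in astrocytes and 39.5 to 65.04 in microglia. Ccl12, a monocyte-attracting chemokine, was in the opposite order at 2.56 to 7.94, 12.4 to 19.6 and 196 to 748 TPM. Besides Ccl12, Lgals3bp was called higher in astrocytes than in neurons, and besides Ifitm1, Ifit3b and Cmpk2 were called higher in astrocytes than in microglia (2.24 and 2.00); these 3 were named after their values were seen. Without neuron library 1 or 5 or astrocyte library 3, 1 gene was higher in astrocytes than in neurons. Sp110 and Slfn2 were called lower in astrocytes than in microglia (-3.83 and -3.71 log2 units).

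Guanylate-binding and immunity-related GTPases, which interferon-gamma induces, were called higher in neurons than in astrocytes for 12 of the 14 tested, and 0 the reverse. The shares of all tested genes were 12.9% and 12.7%. Neurons were higher than microglia for 8 (29.5% of all tested genes) and microglia than neurons for 0 (9.74%). At an unadjusted limma p below 0.05 the reverse was found for 0 genes in either comparison. Of all tested genes, 32.3% were called higher in astrocytes than in microglia and 10.2% the reverse. Astrocytes were higher than microglia for 4 (Tgtp1, Gbp2, Iigp1 and Gbp6) and lower for 3 (Irgm2, Igtp and Gvin1), which became 1 and 5 with median-of-ratios scaling and 0 and 5 with quantile normalization; Gbp6, Igtp and Gvin1 were named after their values were seen. Tgtp1 was at 11.8 to 41.5 TPM in neurons, against 3.29 to 6.73 in astrocytes and only 0.28 to 2.32 in microglia, with neurons minus microglia at 3.67 (SE 0.30, adjusted p = 6.56e-09). Iigp1, Gbp4 and Gbp2 had the same order of means, with neurons minus microglia at 2.80, 2.57 and 2.38. Irgm2 was lowest in astrocytes at 3.53 to 7.46 TPM. Tgtp1, Iigp1, Gbp4 and Gbp2 were thus highest in neurons, and the receptor genes Ifngr1 and Ifngr2 in microglia. Endothelial markers were highest in the same neuron libraries, and their part in these levels was not tested.

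A scaling choice bears on each comparison with microglia. Median-of-ratios scaling moved the median log2 difference of all tested genes by -0.52 (neurons minus microglia) and -0.55 (astrocytes minus microglia), and quantile normalization by -0.45 and -0.52, against 0.06 for neurons minus astrocytes in both. Over all tested genes, 3945 were called higher in neurons and 1300 in microglia with TPM as deposited, 2638 and 2127 with median-of-ratios scaling, and 2447 and 1952 with quantile normalization. For astrocytes and microglia the counts were 4313 and 1359 as deposited, 2602 and 2305, and 2471 and 2048. Of the members, 22 were called higher in neurons than in astrocytes under each scaling. The count called higher in neurons than in microglia was 14 as deposited and 11 under either rescaling, and the count higher in microglia than in astrocytes was 14, 19 and 17. Parp14 and Zbp1 joined those called higher in microglia than in neurons under both rescalings (-1.59 and -1.36 for Parp14, -1.07 and -1.07 for Zbp1), and Samhd1 with median-of-ratios scaling (-1.05). Besides Eif2ak2, those called lower in astrocytes than in microglia came to include Xaf1 (-1.29 and -1.06) and Trim25 (-1.19 and -1.10) under both rescalings, and Irf9 and Rtp4 (-1.13) with median-of-ratios scaling.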

How the data were processed

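RNA-seq was measured in 15 libraries, 5 each of neurons, astrocytes and microglia. The deposited values are TPM per gene; per the submitters' processing notes, DESeq2 1.36.0, RSEM 1.2.28, STAR 2.7.1a and Trim Galore 0.6.4 were used, with mm10. Per the labels' protocols, cDNA was amplified by LD-PCR before polyA enrichment. Every column summed to 1000000 within rounding, so read depth per library is unknown and no counting interval is given. No libraries held identical values.

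Genes that reached 1 TPM in 5 or more libraries were tested on log2(TPM + 1), with a pseudocount of 1, in limma 3.58.1 (R 4.3.3): 1 mean per cell type over all 15 libraries, moderated variances with a trend, and Benjamini-Hochberg adjustment over all 13351 tested genes. A log2 fold on this scale understates the change of low genes. The code was tested on simulated data. The members and lists were chosen with earlier results of these data known. Named are all 38 members and, of each pathway list, up to 4 called genes with the largest difference plus the largest in the less frequent direction. Gene positions are those of GENCODE vM21.

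Libraries that share a replicate number deviated together from their group means between neurons and microglia (correlation across genes 0.22 to 0.38, 5 of 5 over 0.1), and not throughout between neurons and astrocytes (3 of 5 over 0.1) or astrocytes and microglia (3 of 5). The numbers come from the titles, which do not say what they share. Alternatives were the pseudocount, the filter, 2 rescalings, the variance trend, the replicate block, fits of 2 groups, and fits without single or paired libraries.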

Additional observations from a re-analysis of the deposited data

Results flagged for a closer look

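Each group of 5 libraries of a member was searched for a highest or lowest library whose gap to the next, on the log2(TPM + 1) scale, took up most of the group's range. Of 114 groups, 6 (5.26%) held such a library. Chance would give 1 in 20 for independent groups of normally distributed values. The 114 groups share the same 15 libraries and are not independent, so the 2 rates cannot decide on chance. Of these, 3 were astrocyte library 3 at the top: Bst2 was at 84.3 TPM, against 38.6 to 45.4 TPM in the other 4, Ifi27 at 337 TPM, against 221 to 228 TPM in the other 4, and Trim30a at 4.72 TPM, against 1.21 to 1.59 TPM in the other 4. Samhd1 in astrocyte library 2 was low, at 7.53 TPM, against 12.2 to 13.6 TPM in the other 4. Oas2 was high in astrocyte library 5, at 0.41 TPM, against 0.05 to 0.1 TPM in the other 4, and low in microglia library 1, at 0.35 TPM, against 0.93 to 1.19 TPM in the other 4, both close to the lower end of what the table resolves.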

How the results depend on the processing

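The replicate block left each count within 1.5 times and changed no call of a member: 22 were higher in neurons than in astrocytes and 14 higher in neurons than in microglia with replicate number as a block. The member counts that moved by over 1.5 times were those higher in microglia than in neurons (8 with median-of-ratios scaling, 5 as deposited), higher in microglia than in both others (8 and 5) and higher in astrocytes than in microglia (2 with quantile normalization, 4 as deposited). Some counts of the pathway lists also moved by over 1.5 times, under these and other alternatives. Leaving out 1 library at a time gave these ranges: higher in neurons than in astrocytes 20 to 23, the reverse 0, higher in neurons than in microglia 14 to 15, the reverse 5 to 6, and higher in astrocytes than in microglia 3 to 5, the reverse 14. No called difference of a member reversed under any alternative run. Uncalled differences changed sign with median-of-ratios scaling (neurons minus microglia, Irf1 -0.49, Irf9 -0.29, Bst2 -0.59, Ifi27 -0.21, Adar -0.069 and Eif2ak2 -0.53 and, for astrocytes minus microglia, Irf7 -0.094, Usp18 -0.084, Ifnar1 -0.21 and Adar -0.47), with quantile normalization (neurons minus microglia, Irf1 -0.21, Irf9 -0.024, Bst2 -0.26, Adar -0.14 and Eif2ak2 -0.44 and, for astrocytes minus microglia, Ifit2 -0.063, Usp18 -0.0029, Rsad2 -0.019, Ifnar1 -0.022 and Adar -0.53), without microglia libraries 1 and 2 (neurons minus microglia, Irf1 -0.13, Bst2 -0.087 and Eif2ak2 -0.053 and, for astrocytes minus microglia, Adar -0.025), without all numbered 1 and 2 (neurons minus microglia, Bst2 -0.061) and without all numbered 3 and 4 (neurons minus microglia, Irf2 0.20, Bst2 -0.14 and Eif2ak2 -0.077 and, for astrocytes minus microglia, Irf3 0.082 and Adar -0.24). Leaving out 1 library changed the sign of some, with ranges of Adar, astrocytes minus microglia, -0.16 to 0.19, Bst2, neurons minus microglia, -0.13 to 0.21, Eif2ak2, neurons minus microglia, -0.13 to 0.21, Irf2, neurons minus microglia, -0.31 to 0.012, Irf3, astrocytes minus microglia, -0.15 to 0.068. The cause was not tested. TPM keep no read depth, so the precision of low members such as Oas2, Mx1 and Ifih1 cannot be given, and the spread over 5 libraries is the only error. Without a filter, both untested members were higher in microglia: neurons minus microglia and astrocytes minus microglia were -0.65 and -0.72 for Mx1 (adjusted p = 4.47e-05 and 1.56e-05) and -0.46 and -0.71 for Oas2 (adjusted p = 0.00359 and 9.30e-05), sizes that a pseudocount of 1 keeps under the minimum at such low levels.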
